A study of Homo sapiens with 8 samples.

Results

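The SR and hnRNP splicing factors were chosen by gene symbol and by read count, as every gene whose symbol begins with SRSF and a digit or with HNRNP and that had at least 10 reads in at least 2 of the 8 libraries. Of 23228 genes listed, 36 had such a symbol and 32 met the count minimum, 11 SR protein genes and 21 hnRNP genes. The 4 that did not were HNRNPA1P10, HNRNPCL1 and HNRNPUL2-BSCL2, at 0 reads in every library, and SRSF12, at 0 to 2 reads. Just inside the minimum lay HNRNPA3P1, a pseudogene with 12 reads in the first ERβ-KO library and 10 in the second ERβ1 library and 2 to 6 in the others, and HNRNPH2, with 8 to 15 reads. HNRNPA3P1 was too low to be tested, so 31 members were tested.

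The 8 total RNA libraries came from cells labelled U87 MG, an established human glioblastoma line, grown in DMEM with serum and sequenced as single-end reads of 50 bases. There were 4 groups of 2 libraries each. ERβ5 and ERβ1 are cells in which estrogen receptor beta (ERβ, gene ESR2) was knocked out and then the ERβ5 or the ERβ1 isoform was put back, ERβ-KO are the knockout cells themselves, made with CRISPR/Cas9, and control are U87 cells without the knockout. ERβ5 and ERβ1 therefore share the knockout with ERβ-KO. Whether the knockout was 1 clone or a pool, what drives the isoforms, and whether both libraries of a group stem from different cultures is not stated in the sources used here. The spread behind each p-value is thus that between the samples at hand and may be technical.

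SR proteins carry an RNA recognition motif and a domain rich in arginine and serine, bind exonic enhancers and recruit the spliceosome to nearby splice sites. The hnRNPs coat nascent transcripts and often oppose that recruitment from silencer elements, so the balance between both families helps to set which exons are kept. SR proteins are switched by phosphorylation by the SRPK and CLK kinases, and many genes of both families hold ultraconserved or poison exons whose inclusion sends the transcript to nonsense-mediated decay, which lets the proteins hold down their own level. Raised SRSF1 and HNRNPA2B1 are well known in glioblastoma.

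Gene counts ran from 26760897 to 48076414 per library. ESR2 had 7 and 10 reads in the libraries labelled ERβ5, 6 and 18 in ERβ1, 23 and 21 in ERβ-KO and 25 and 20 in control, and differed in none of the 6 comparisons by edgeR's quasi-likelihood test (adjusted p from 0.0761 to 0.932). A CRISPR lesion need not lower a transcript, but the libraries labelled with an added isoform did not have more ESR2 reads, so the group names below stand for labels. Markers of luminal epithelium had a median of 870 to 1663 CPM (counts scaled to an equal library size) in a library over 10 genes, while 10 markers of glioma and astrocytes had a median of 0.331 to 1.92 CPM. These medians go against the labelled cell line. Of the glioma and astrocyte markers, OLIG2, S100B and POSTN were at 0 reads throughout. The highest were FN1 at 52.7 to 175 CPM, CD44 at 47.4 to 61.9 and SOX2 at 11.4 to 30.2. The summed level of 20 mitosis genes was 508 and 560 CPM in ERβ5, 316 and 364 in ERβ1, 1293 and 1156 in ERβ-KO and 696 and 618 in control, and its part in the results below was not tested.

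To show the upstream sequence of the members on which the results turn, the 250 bases before the start of SRSF5, which differed from control in every other group, and of HNRNPH3, HNRNPR, HNRNPU and SRSF1, the 4 members called lower in both isoform groups than in ERβ-KO, are given 5′ to 3′ from RefSeq (GRCh38.p14), with capitals marking an ETS core in SRSF5 and CCAAT boxes in the 3 hnRNP genes (CCAAT, or ATTGG where the box lies on the other strand). SRSF1 holds neither motif in this window.
SRSF5, chr14:69766892-69767141, plus strand: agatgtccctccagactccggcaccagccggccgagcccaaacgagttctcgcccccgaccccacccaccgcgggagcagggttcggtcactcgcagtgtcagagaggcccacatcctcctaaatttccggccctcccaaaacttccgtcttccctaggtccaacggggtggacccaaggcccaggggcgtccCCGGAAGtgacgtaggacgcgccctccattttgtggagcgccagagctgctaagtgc
HNRNPH3, chr10:68331443-68331692, plus strand: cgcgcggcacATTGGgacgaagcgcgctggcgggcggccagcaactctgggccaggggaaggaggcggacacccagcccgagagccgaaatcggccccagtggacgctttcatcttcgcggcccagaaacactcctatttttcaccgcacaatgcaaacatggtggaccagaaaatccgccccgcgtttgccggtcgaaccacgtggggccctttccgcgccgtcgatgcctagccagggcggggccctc
HNRNPR, chr1:23344285-23344534, minus strand: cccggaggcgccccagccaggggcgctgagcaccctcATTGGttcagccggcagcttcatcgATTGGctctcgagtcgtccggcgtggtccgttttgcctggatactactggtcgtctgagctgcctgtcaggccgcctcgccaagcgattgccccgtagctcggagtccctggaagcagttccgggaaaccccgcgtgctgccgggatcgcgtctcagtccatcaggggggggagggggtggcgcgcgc
HNRNPU, chr1:244864544-244864793, minus strand: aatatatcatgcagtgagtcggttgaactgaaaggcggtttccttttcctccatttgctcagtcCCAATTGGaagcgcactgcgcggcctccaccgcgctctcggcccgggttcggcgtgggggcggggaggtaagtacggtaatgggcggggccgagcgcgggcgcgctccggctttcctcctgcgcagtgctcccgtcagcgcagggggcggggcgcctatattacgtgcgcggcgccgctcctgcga
SRSF1, chr17:58007247-58007496, minus strand: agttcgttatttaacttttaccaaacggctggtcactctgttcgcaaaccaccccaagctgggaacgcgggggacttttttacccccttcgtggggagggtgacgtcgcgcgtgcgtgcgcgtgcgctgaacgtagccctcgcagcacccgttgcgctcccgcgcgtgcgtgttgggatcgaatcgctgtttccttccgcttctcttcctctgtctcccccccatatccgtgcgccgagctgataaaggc

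RefSeq promoters were found for 28 of the 32 members, and each motif was searched on both strands of these 250 bases. The CCAAT box, written CCAAT, was in 14 of 28 members' promoters (50%), against 32% of all 35116 promoters. An ETS core, written CCGGAAG, was in 4 members (14.3%), against 8.52% of all promoters, namely SRSF5, SRSF4, HNRNPD and HNRNPF. The palindromic estrogen response element (GGTCA and TGACC with any 3 bases between), the sequence that estrogen receptors bind best, was in 0 members and 0.0399% of all promoters, and its single arm AGGTCA was in SRSF8 (3.57% of members) and 12.1% of all promoters. A TATA box, written TATAAA, was in 5 members (17.9%), against 10.7% of all promoters, an AP-1 site, written TGAGTCA, in 0 members against 4.2%, and an NRF1 site in 0 members against 1.03%. A missing match says only that these letters are not in this window, and the letters of the arm can overlap those of a full element. The members' promoters had a median GC content of 64.2%, against 58% over all promoters.

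Together the 32 members took 0.577 and 0.564% of gene reads in ERβ5, 0.552 and 0.565% in ERβ1, 0.637 and 0.63% in ERβ-KO and 0.538 and 0.543% in control. Both ERβ-KO libraries lay above the other 6. The hnRNPs took 0.412 and 0.399%, 0.387 and 0.394%, 0.464 and 0.449%, and 0.39 and 0.389% in the same order, and the SR proteins 0.165 and 0.165%, 0.165 and 0.171%, 0.174 and 0.181%, and 0.148 and 0.154%. The SR share in the libraries labelled control lay below that of every other library. SRSF5 entered this share with means of 278 CPM in ERβ5, 299 in ERβ1, 256 in ERβ-KO and 156 in control. The median log2 change of the 11 SR genes against control was 0.02 in ERβ5, -0.03 in ERβ1 and 0.14 in ERβ-KO. In bulk RNA, fewer cells of a type and less RNA per cell cannot be told apart. Mean levels, in CPM scaled by TMM, were over 100 CPM in 20 members, 10 to 100 in 8, 1 to 10 in 1 and under 1 in 3. The mean over libraries was highest in ERβ-KO in 20 members, in ERβ5 in 6, in ERβ1 in 3 and in control in 3. The share of all genes highest in ERβ-KO is not given here. With a trend on GC content described below removed, the members' median log2 change in ERβ-KO against control was -0.0042.

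Per kilobase of transcript, the highest member was HNRNPA2B1 at 237 CPM per kilobase, followed by SRSF9 at 233 and SRSF5 at 165. HNRNPF at 142, HNRNPH1 at 139, HNRNPK at 124 and HNRNPAB at 122 CPM per kilobase came next. HNRNPA1, in most human cells one of the most abundant hnRNPs, stood at 3.25 CPM per kilobase, close to its relative HNRNPA1L2 at 3.35. Reads with more than 1 place in the genome were not counted in genes. Of the 50-base windows of the HNRNPA1 transcript, 40.1% have an exact copy elsewhere in GRCh37, or 83.2% of those in its coding sequence. HNRNPA3, with 93.6% of coding windows copied, stood at 9.09 CPM per kilobase, and HNRNPC, with 58.2%, at 91.2. The part of copied sequence in these levels was not tested. A window from bases 241 to 290 of the HNRNPA1 transcript, shown because a read from it has 10 exact copies elsewhere and cannot be placed, reads as follows.
HNRNPA1 window, chromosome 12: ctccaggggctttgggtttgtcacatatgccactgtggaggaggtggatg

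The share of copied windows was over 30% in 5 members, HNRNPA1, HNRNPA1L2 (55.8%), HNRNPA3 (35.6%), HNRNPC (33.6%) and HNRNPK (30.3%), and over 10% also in HNRNPL (21.5%), HNRNPA3P1 (20.5%) and SRSF9 (12.2%). It was 0 in 9 members, SRSF5 and HNRNPA2B1 among them, and 0.39% in HNRNPH3. The entry for alignments with several places held 35.5 and 34.7% of all counts in ERβ5 and 37.7 and 37.8% in ERβ1. It held 35.4 and 36.4% in ERβ-KO and 39.7 and 39.9% in control, and its part in the levels was not tested.

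**Figure D1:**
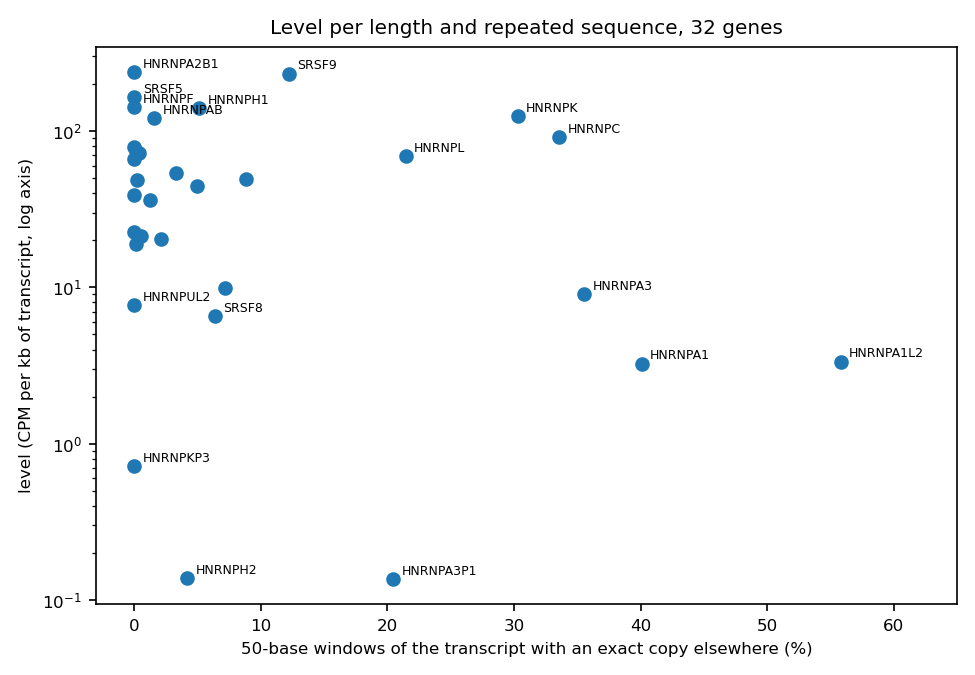
Each point is 1 member, with the share of its 50-base transcript windows that have an exact copy elsewhere in GRCh37 on the x axis (percent) and its mean level over the 8 libraries per kilobase of transcript on the y axis (CPM per kilobase, log scale). HNRNPA1, with 40.1% of windows copied, sits at 3.25 CPM per kilobase, while HNRNPK at 30.3% and HNRNPC at 33.6% lie at 124 and 91.2, and HNRNPKP3 with none lies at 0.718.

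Among the SR proteins, SRSF5 (chromosome 14, 70193617 to 70238722 on GRCh37, plus strand), first known in rat as HRS, a gene induced by insulin and in regenerating liver, differed most between groups. SRSF5 had 269.9 and 286 CPM in the libraries labelled ERβ5, 321 and 276 in ERβ1, 262 and 249.6 in ERβ-KO and 147 and 165 in control. All 6 libraries labelled ERβ5, ERβ1 or ERβ-KO lay above both labelled control. The log2 change was 0.83 ± 0.107 for ERβ5 against control (SE, edgeR adjusted p = 0.000558), 0.94 ± 0.108 for ERβ1 against control (adjusted p = 0.000832) and 0.71 ± 0.107 for ERβ-KO against control (adjusted p = 0.00255), 3 comparisons that share the control libraries. Against ERβ-KO it was 0.12 ± 0.107 in ERβ5 (adjusted p = 0.414) and 0.23 ± 0.107 in ERβ1 (adjusted p = 0.14), neither past 0.05. The 3 calls against control held under all 13 alternative settings tried.

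SRSF6, a regulator of tau and lamin A splicing, had 225 and 226 CPM in the libraries labelled ERβ5, 216 and 246 in ERβ1, 209.9 and 237 in ERβ-KO and 172 and 182 in control. The control libraries were again the 2 lowest of the 8. It rose in ERβ5 against control by 0.35 ± 0.104 (log2 ± SE, edgeR adjusted p = 0.0462) and in ERβ-KO against control by 0.34 ± 0.104 (adjusted p = 0.0446), and the difference of ERβ1 from control, 0.38 ± 0.104, missed the threshold (adjusted p = 0.0631). With the trend of log2 level on GC content and transcript length taken out across all genes, called GC-corrected below, ERβ-KO against control was not called, at 0.08 (adjusted p = 0.611), while ERβ5 and ERβ1 against control came to 0.41 and 0.36 (adjusted p = 0.00914 and 0.0287).

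SRSF1, the founding SR protein and a known proto-oncogene, had 236 and 237 CPM in the libraries labelled ERβ5, 236 and 246 in ERβ1, 301 and 320.2 in ERβ-KO and 253 and 262 in control. Both ERβ-KO libraries lay above the other 6, and SRSF1 fell against ERβ-KO, with a log2 change of -0.39 ± 0.0909 in ERβ5 and -0.37 ± 0.0909 in ERβ1 (SE, edgeR adjusted p = 0.0107 and 0.014). ERβ-KO against control gave 0.27 ± 0.0908 (adjusted p = 0.0603). GC-corrected, both calls ended, at -0.04 in ERβ5 and -0.09 in ERβ1 against ERβ-KO (adjusted p = 0.799 and 0.528), and ERβ-KO against control came to -0.029. SRSF10, which acts as a splicing repressor when dephosphorylated, had 68.2 and 65.1 CPM in the libraries labelled ERβ5, 66.7 and 81.5 in ERβ1, 92.9 and 91.6 in ERβ-KO and 74.6 and 70 in control. It rose in ERβ-KO against control (0.35 ± 0.111, adjusted p = 0.0488) and fell in ERβ5 against ERβ-KO (-0.47 ± 0.111, adjusted p = 0.0121), with no overlap of the groups. GC-corrected, these came to -0.057 and -0.05 (adjusted p = 0.648 and 0.669), and RLE scaling, upper-quartile scaling and the replicate block also ended the call of ERβ-KO against control. SRSF11, which is known to promote inclusion of very short exons in neurons, had 82.4 and 75.1 CPM in the libraries labelled ERβ5, 83.9 and 92.5 in ERβ1, 98.4 and 97.3 in ERβ-KO and 71.9 and 72.3 in control. It rose in ERβ-KO against control (0.44 ± 0.0988, adjusted p = 0.0138) and fell in ERβ5 against ERβ-KO (-0.31 ± 0.0989, adjusted p = 0.0362), and GC-corrected these were 0.17 and 0.0063 (adjusted p = 0.119 and 0.961).

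SRSF3, a small SR protein that couples splicing to mRNA export, had 177 and 179 CPM in the libraries labelled ERβ5, 149.6 and 190.2 in ERβ1, 203 and 226 in ERβ-KO and 194 and 194 in control. ERβ-KO was the highest group and both isoform groups lay below it. The log2 differences were -0.27 ± 0.117 in ERβ5 (adjusted p = 0.107) and -0.33 ± 0.117 in ERβ1 (adjusted p = 0.0583), neither past the threshold. GC-corrected, these came to 0.067 and -0.083 (edgeR adjusted p = 0.623 and 0.516). SRSF9, an SR protein related to SRSF1, had 262 and 267 CPM in the libraries labelled ERβ5, 280.2 and 284 in ERβ1, 220.4 and 256 in ERβ-KO and 282 and 294 in control. Its ERβ-KO libraries were the lowest of the 8, and the log2 difference of ERβ-KO from control was -0.27 ± 0.0995 (adjusted p = 0.0761).

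SRSF2, which is mutated in myeloid neoplasms, had 137 and 148 CPM in the libraries labelled ERβ5, 137 and 124 in ERβ1, 139 and 156 in ERβ-KO and 140.2 and 141 in control. SRSF7, the relative of SRSF3 with a zinc knuckle, had 91.2 and 101 CPM in the libraries labelled ERβ5, 90.5 and 82.5 in ERβ1, 93.2 and 95.1 in ERβ-KO and 88.8 and 90.8 in control. For both genes the libraries of ERβ5 and ERβ-KO overlapped in level, and no comparison passed the threshold. SRSF4 ran from 43.9 to 60.1 CPM and SRSF8, an intronless relative of SRSF2, from 20.9 to 34 CPM. In SRSF8 the libraries labelled ERβ5 lay below those labelled ERβ1, with a log2 difference of -0.44 ± 0.14 (edgeR adjusted p = 0.118).

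**Figure D2:**
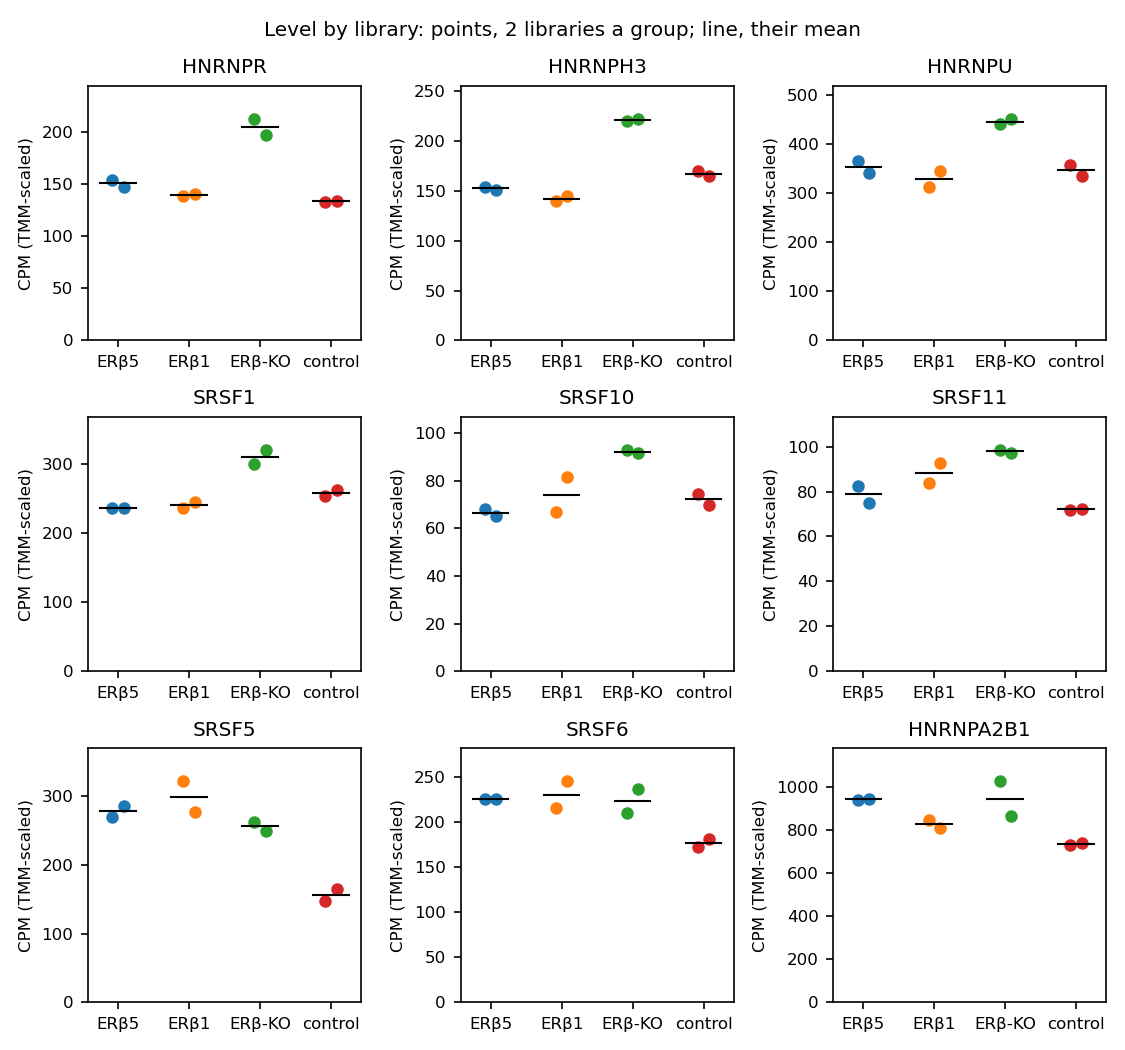
TMM-scaled level in CPM (y axes, linear, from 0) of the members that led the calls, with 1 point per library and a bar at the mean of each group of 2, in the order ERβ5, ERβ1, ERβ-KO, control. SRSF5 is lowest in both control libraries, at 147 and 165 CPM, while HNRNPH3, HNRNPR and HNRNPU are highest in both ERβ-KO libraries.

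Among the hnRNPs, HNRNPH3 (chromosome 10, 70090931 to 70102950 on GRCh37, plus strand), an hnRNP H relative known for a role in splicing during heat shock, had 154 and 151 CPM in the libraries labelled ERβ5, 139 and 144 in ERβ1, 220.4 and 222 in ERβ-KO and 170.04 and 165 in control. No 2 of the 4 groups overlapped, with ERβ-KO highest and both isoform groups below control, at -0.14 ± 0.0887 in ERβ5 and -0.24 ± 0.0887 in ERβ1 against control (log2 ± SE, edgeR adjusted p = 0.359 and 0.168), neither of them called. HNRNPH3 fell against ERβ-KO, at -0.54 ± 0.0888 in ERβ5 and -0.64 ± 0.0889 in ERβ1 (log2 ± SE, edgeR adjusted p = 0.00258 and 0.000577), and both calls held under all 13 alternative settings. It rose in ERβ-KO against control by 0.40 ± 0.0885 (adjusted p = 0.0131), which GC-corrected was 0.18 (adjusted p = 0.139).

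HNRNPR (chromosome 1, 23630264 to 23670829 on GRCh37, minus strand), which carries mRNA such as that of beta-actin along axons, had 153 and 147 CPM in the libraries labelled ERβ5, 138 and 140.5 in ERβ1, 212 and 197 in ERβ-KO and 133 and 134 in control. The ERβ-KO libraries lay above all the others. It rose in ERβ-KO against control by 0.62 ± 0.0912 (adjusted p = 0.00232) and fell against ERβ-KO, at -0.44 ± 0.0911 in ERβ5 and -0.55 ± 0.0912 in ERβ1 (adjusted p = 0.0068 and 0.0016). GC-corrected, all 3 calls ended, at 0.18 in ERβ-KO against control and 0.0012 in ERβ5 and -0.17 in ERβ1 against ERβ-KO (adjusted p = 0.346, 0.995 and 0.304). HNRNPU (chromosome 1, 245003940 to 245027862 on GRCh37, minus strand), the scaffold attachment factor that links RNA and chromatin, had 364 and 341 CPM in the libraries labelled ERβ5, 312 and 345 in ERβ1, 439.8 and 450.4 in ERβ-KO and 358 and 335 in control. It rose in ERβ-KO against control by 0.36 ± 0.0975 (adjusted p = 0.0279), and fell against ERβ-KO, at -0.34 ± 0.0975 in ERβ5 and -0.44 ± 0.0976 in ERβ1 (adjusted p = 0.026 and 0.00836). GC-corrected, ERβ1 against ERβ-KO stayed called at -0.26 (adjusted p = 0.0271), while ERβ-KO against control came to 0.18 and ERβ5 against ERβ-KO to -0.12 (adjusted p = 0.145 and 0.3).

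HNRNPA2B1, the highest member and a reader of trafficking signals in mRNA, had 939.6 and 942 CPM in the libraries labelled ERβ5, 845 and 809 in ERβ1, 1025 and 862 in ERβ-KO and 727 and 738 in control. Both control libraries were the lowest of the 8, and the ERβ5 libraries lay between the 2 ERβ-KO libraries. HNRNPA2B1 rose against control by 0.36 ± 0.104 in ERβ5 and 0.36 ± 0.104 in ERβ-KO (adjusted p = 0.0421 and 0.0346). GC-corrected, the change was 0.41 in ERβ5 and 0.051 in ERβ-KO (adjusted p = 0.0385 and 0.828). HNRNPC, which keeps Alu-derived exons out of mRNA, had 301 and 307 CPM in the libraries labelled ERβ5, 272 and 267 in ERβ1, 325 and 313 in ERβ-KO and 261 and 264 in control. It rose in ERβ-KO against control by 0.28 ± 0.0887 (adjusted p = 0.0472), which GC-corrected was 0.042 (adjusted p = 0.796), and 33.6% of its windows are copied elsewhere. This call of HNRNPC was kept in 3 of 13 alternative settings.

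HNRNPL, a CA-repeat binder that regulates CD45 splicing in T cells, ran the other way. It had 155 and 163 CPM in the libraries labelled ERβ5, 158 and 149 in ERβ1, 116 and 137 in ERβ-KO and 149.5 and 155 in control, and the ERβ-KO libraries were the lowest of the 8. It rose in ERβ5 against ERβ-KO by 0.33 ± 0.103 (adjusted p = 0.0363), the only member called higher there, while ERβ-KO against control gave -0.27 ± 0.103 (adjusted p = 0.0913). HNRNPA3, an hnRNP A/B protein, had 49.3 and 42.7 CPM in the libraries labelled ERβ5, 43.7 and 56.5 in ERβ1, 58.5 and 66 in ERβ-KO and 50.1 and 48.5 in control. It fell in ERβ5 against ERβ-KO (log2 change -0.44 ± 0.135, adjusted p = 0.0331). GC-corrected, these calls of HNRNPL and HNRNPA3 ended, at 0.19 and -0.058 (adjusted p = 0.1 and 0.655).

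HNRNPK, a binder of C-rich RNA and DNA, had 341 and 316 CPM in the libraries labelled ERβ5, 337 and 378 in ERβ1, 375 and 411 in ERβ-KO and 350.3 and 364 in control. ERβ5 lay below ERβ-KO, with a log2 difference of -0.26 ± 0.101 that did not pass (adjusted p = 0.0759). GC-corrected, this difference was -0.015 (edgeR adjusted p = 0.911). HNRNPA1, which antagonises SRSF1 at alternative 5′ splice sites, had 9.91 and 8.38 CPM in the libraries labelled ERβ5, 8.41 and 15.1 in ERβ1, 11.7 and 17.5 in ERβ-KO and 13.1 and 13.4 in control. The 2 ERβ1 libraries spanned most of the range of all 8, while ERβ5 lay below ERβ-KO without overlap, and ERβ5 against ERβ-KO gave -0.66 ± 0.262 (adjusted p = 0.081). HNRNPH1, which binds G-runs, ran from 261 to 348 CPM and HNRNPUL1, an HNRNPU relative with a role in the DNA damage response, from 261 to 343 CPM. Both fell in ERβ5 against ERβ-KO, at -0.32 ± 0.0974 and -0.33 ± 0.0963 (adjusted p = 0.0299 and 0.0274), and GC-corrected at -0.15 and -0.46 (adjusted p = 0.241 and 0.00252).

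No comparison called any of the other hnRNPs tested. HNRNPF, which like HNRNPH1 binds G-runs, ran from 339.9 to 387 CPM, HNRNPAB from 196 to 237 CPM, HNRNPA0 from 133 to 179.9 CPM, HNRNPM, a splicing regulator of the epithelial-mesenchymal transition, from 149.7 to 180.1 CPM, HNRNPD (AUF1, a binder of AU-rich elements) from 103 to 121 CPM and HNRNPUL2 from 36.2 to 46.2 CPM. HNRNPA1L2 ran from 3.09 to 5.33 CPM, the pseudogene HNRNPKP3 from 0.735 to 1.29 CPM and HNRNPH2 from 0.184 to 0.461 CPM, levels at which counting error is large. The exons of HNRNPH2 and HNRNPUL2 overlap those of readthrough genes on the same strand, RPL36A-HNRNPH2 and HNRNPUL2-BSCL2. Whether this lowered their counts was not tested. Further, 12 members overlap exons on the opposite strand. Among them are HNRNPA2B1 with CBX3 and NFE2L3, HNRNPH3 with RUFY2, HNRNPU with COX20, SRSF9 with GATC and SRSF2 with MFSD11. The strand setting of the counting is not given in the sources used here, so reads of such pairs cannot be told apart. Over the 31 tested members, the ratio of the highest to the lowest library had a median of 1.37 and was 2 or more in 3 members, SRSF5, HNRNPA1 and HNRNPH2.

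**Figure D3:**
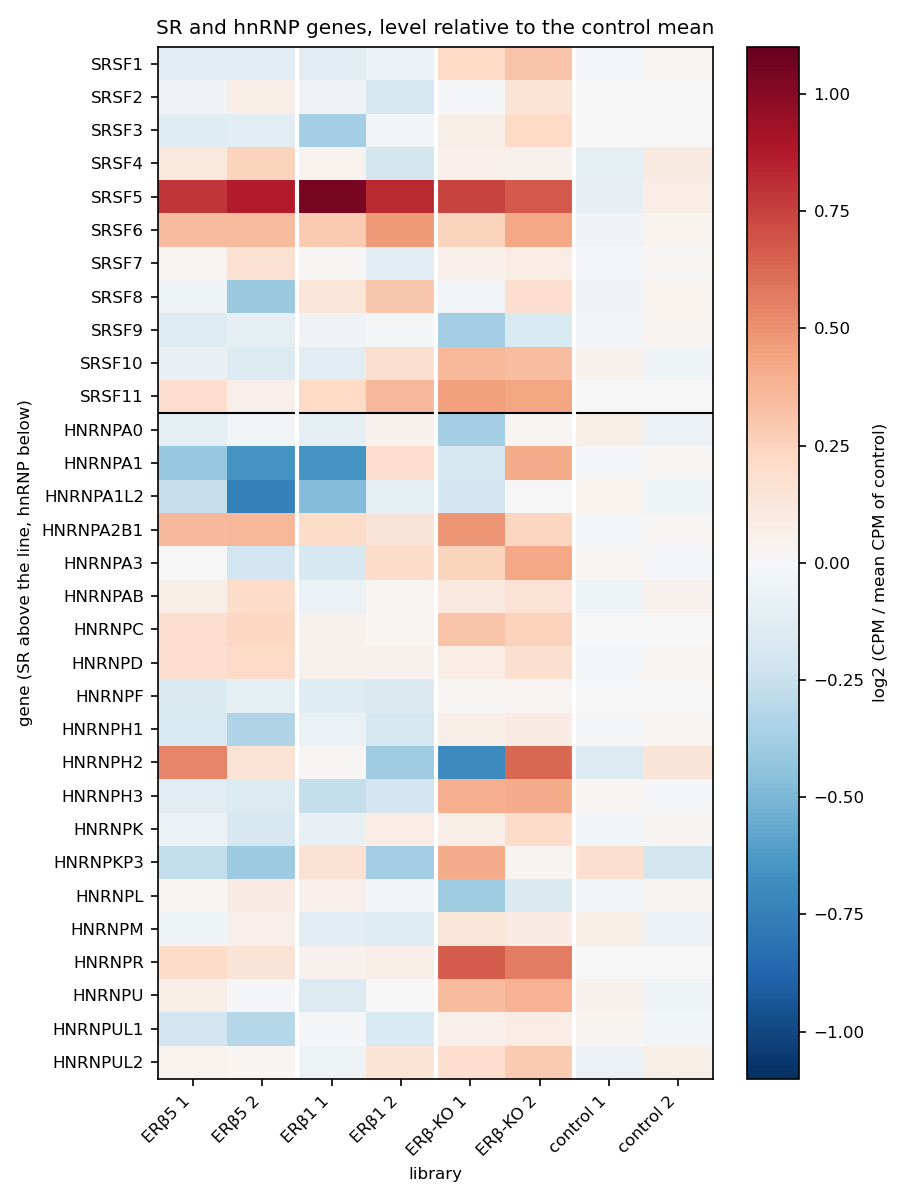
Log2 level of each of the 31 tested members relative to the mean of the 2 control libraries (colour, red higher and blue lower), with the 8 libraries across in the order ERβ5, ERβ1, ERβ-KO, control and the SR proteins above the hnRNPs. The SRSF5 row is red in all 6 libraries labelled ERβ5, ERβ1 or ERβ-KO, and HNRNPR, HNRNPH3 and HNRNPU are reddest in the 2 ERβ-KO libraries.

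In ERβ-KO against control, groups that differ by label in the knockout, 9 SR and hnRNP genes were called, each of them higher. Of 31 tested members, 9 rose and 0 fell, 4 of 11 SR proteins (SRSF5, SRSF6, SRSF10 and SRSF11) and 5 of 20 hnRNPs (HNRNPR, HNRNPH3, HNRNPA2B1, HNRNPU and HNRNPC), while 8.98% of all 13915 genes tested rose and 8.52% fell (17.5% in either direction). All 20 mitosis genes rose in the same comparison. The members' median log2 change was 0.13, against 0.01 over all genes tested, and 27 of 31 had a value above 0, against 7115 of 13915 genes. The 4 with values below 0 were SRSF9, HNRNPL, HNRNPA0 and HNRNPA1L2. The count was 2 without control replicate 1, 2 without control replicate 2 and 2 without ERβ-KO replicate 1, SRSF5 and HNRNPR each time, and 5 without ERβ-KO replicate 2, while calls over all genes went down too, to 506, 237, 419 and 1480 in the same fits, against 2434. Fitted on these 2 groups alone, with the spread estimated from them only, 11 members were called higher and 2 lower, SRSF9 and HNRNPL. The share over all genes in that fit is not given here, so its count is not set against the 9.

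In ERβ1 against ERβ-KO, groups that differ by label in the added ERβ1 isoform, HNRNPH3, HNRNPR, HNRNPU and SRSF1 fell. That is 4 of 31 members lower and 0 higher, against 12.5% lower and 12.4% higher over all genes, and the share of members called in either direction, 12.9%, lay below the 24.9% of all genes. All 20 mitosis genes fell there. The members' median was -0.18 on the log2 scale, against -8.21e-05 over all genes. Without ERβ1 replicate 1 the count was 2, HNRNPH3 and HNRNPR, and without ERβ1 replicate 2 it was 8, with 1198 and 3773 of all genes called in these fits, against 3466.

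For ERβ5 against ERβ-KO the list of lower members was longer. HNRNPH3, SRSF10, HNRNPR, HNRNPA3, SRSF1, HNRNPU, HNRNPUL1, HNRNPH1 and SRSF11 fell and HNRNPL rose, 9 lower and 1 higher of 31, against 13.5% lower, 14.7% higher and 28.2% in either direction over all genes tested. The median member stood at -0.20, against 0.01 over all genes. All 20 mitosis genes fell there as well, and both isoform comparisons share the ERβ-KO libraries. The count of 10 was 3 without ERβ-KO replicate 1, 3 without ERβ-KO replicate 2, 4 without ERβ5 replicate 2 and 11 without ERβ5 replicate 1, with 1859, 1716, 1674 and 4378 of all genes called in these fits, against 3922.

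The isoform groups were then set against each other. In ERβ5 against ERβ1, 0 of 31 members passed edgeR's test or DESeq2's, against 3.49% higher, 1.18% lower and 4.66% in either direction over all genes by edgeR, and 2 members had an unadjusted p under 0.05. The median was -0.02, against -0.01 over all genes. Of the 20 mitosis genes, 16 rose there. Without ERβ5 replicate 1 the count was 1, SRSF8, with 1389 of all genes called, against 649. A p that misses the threshold does not show that the isoform groups are alike.

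SRSF5 was higher in both isoform groups than in control. In ERβ5 against control SRSF5, HNRNPA2B1 and SRSF6 rose, 3 of 31 higher and 0 lower, against 6.85% higher, 6.31% lower and 13.2% in either direction over all genes, with a median of 0.01 in both sets. Leaving out either control library or either ERβ5 library left 1, SRSF5, with 587 to 2143 of all genes called, against 1831. In ERβ1 against control SRSF5 alone rose, 1 of 31 higher and 0 lower, against 1.36% higher, 2.7% lower and 4.06% in either direction over all genes, with a median of -0.03 against 0.01. Of the 20 mitosis genes, 6 fell in ERβ5 and 18 in ERβ1 against control.

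GC content moved with the ERβ-KO comparisons across the whole table. The members' transcripts are AT-rich, with a median of 42.4% GC, 35.1% in HNRNPR to 54.9% in HNRNPUL1, against 48.8% over all genes tested, and 24 of 31 lie under 50%. In ERβ-KO against control the log2 change ran against GC content across genes, with a Pearson r of -0.57 over the 31 members and -0.46 over 13268 genes. For ERβ5 and ERβ1 against ERβ-KO it was 0.39 and 0.43 over the members and 0.53 and 0.38 over all genes. Genes are not independent replicates and share the libraries. All 9 members called in ERβ-KO against control are under 50% GC, where the median of 24 was 0.19, against 0.066 in the 7 at or over 50%.

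With the trend on GC content and length taken out across all genes, SRSF5 stayed higher than control in every group, at 0.92 in ERβ5, 0.97 in ERβ1 and 0.63 in ERβ-KO (edgeR adjusted p = 0.000537, 0.000741 and 0.00651). HNRNPH3 stayed lower than ERβ-KO in ERβ5 at -0.25 and in ERβ1 at -0.42 (adjusted p = 0.0391 and 0.00277). The count of members called in ERβ-KO against control was 2, SRSF5 and HNRNPAB, against 11.8% of all genes in that fit, and the members' median was -0.0042. In ERβ1 against ERβ-KO 7 were called, with SRSF5 and SRSF6 higher and HNRNPH3, HNRNPU, HNRNPUL1, HNRNPM and HNRNPAB lower, against 24% of all genes. In ERβ5 against ERβ-KO 4 were called, with SRSF6 and HNRNPD higher and HNRNPH3 and HNRNPUL1 lower, against 18% of all genes. Against control, ERβ5 had 5 calls, with SRSF5, SRSF6, HNRNPA2B1 and HNRNPD higher and HNRNPUL1 lower, and ERβ1 had 3, with SRSF5, SRSF6 and SRSF11 higher, against 21.9% and 9.85% of all genes. Of the 186 values of 31 members in 6 comparisons, 30 changed sign with the correction, 12 of them in ERβ-KO against control and 3 of them among the 27 calls. Whether the GC trend came from the cells or from the libraries was not tested.

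**Figure D4:**
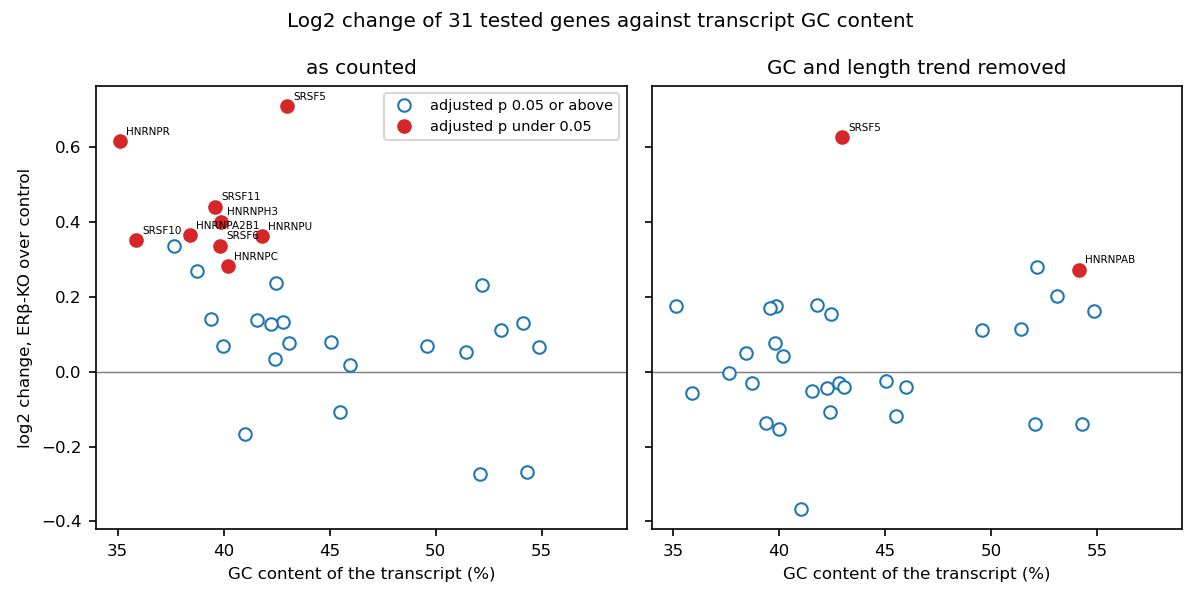
Log2 change of ERβ-KO over control for each of the 31 tested members (y axes) against the GC content of its transcript (x axes, percent), as counted on the left and with the trend on GC content and length removed on the right, with called members filled. On the left all 9 called members lie under 50% GC, and on the right SRSF5 and HNRNPAB are called.

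Of 18 SR-related proteins and SR kinases, CLK1 and CLK4, kinases that phosphorylate SR proteins in the nucleus, fell in both isoform groups against ERβ-KO and against control. CLK1 stood at -0.54 in ERβ5 and -0.71 in ERβ1 against ERβ-KO, and at -0.79 in ERβ5 and -0.95 in ERβ1 against control (edgeR adjusted p = 0.0077, 0.00154, 0.00111 and 0.000917). CLK4 gave -0.84, -0.63, -0.98 and -0.77 in the same order (adjusted p = 0.00458, 0.0137, 0.00202 and 0.0178). TRA2B, an SR-like activator of exons, fell against ERβ-KO, at -0.41 in ERβ5 and -0.32 in ERβ1. The list had 1 higher and 3 lower in ERβ5 and 0 higher and 3 lower in ERβ1 against ERβ-KO, 2 higher and 2 lower in ERβ5 and 1 higher and 2 lower in ERβ1 against control, and 1 higher, PNISR, and 0 lower in ERβ-KO against control. These counts and those of the lists that follow stand beside 8.98% higher and 8.52% lower over all genes in ERβ-KO against control, 14.7% and 13.5% in ERβ5 and 12.4% and 12.5% in ERβ1 against ERβ-KO, and 6.85% and 6.31% in ERβ5 and 1.36% and 2.7% in ERβ1 against control. GC-corrected, CLK1 and CLK4 stayed lower than control in ERβ5 (-0.72 and -0.93) and ERβ1 (-0.96 and -0.82), and were called lower in ERβ-KO against control too (-0.49 and -0.47). Against ERβ-KO the calls of CLK1 in ERβ5, CLK4 in ERβ1 and TRA2B in both ended. The call of PNISR in ERβ-KO against control ended too, at 0.12 (edgeR adjusted p = 0.793).

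Of 31 other splicing regulators tested, 6 rose and 0 fell in ERβ-KO against control, with TIA1, a binder of U-rich introns, at 0.73, QKI, the quaking protein of glia, at 0.68 and MBNL1, a muscleblind protein, at 0.54 (edgeR adjusted p = 0.00265, 0.00789 and 0.0127). Against ERβ-KO, 1 rose and 10 fell in ERβ5 and 2 rose and 7 fell in ERβ1, with TIA1 at -0.73 and -0.53 and QKI at -0.59 and -0.79. ESRP2, an epithelial splicing regulator, rose in both, by 0.42 in ERβ5 and 0.57 in ERβ1. Against control, 0 rose and 3 fell in ERβ5 (RBMX, also called hnRNP G, ESRP1 and KHDRBS1) and 0 of 31 were called in ERβ1. The list's medians were 0.17 in ERβ-KO against control, -0.25 in ERβ5 and -0.15 in ERβ1 against ERβ-KO. GC-corrected, the counts were 5 higher and 0 lower, 0 higher and 8 lower, and 3 higher and 9 lower, with medians of 0.047, -0.088 and -0.12. Over all genes, 11.8%, 18% and 24% were called in either direction in the same order. TIA1 then stayed called in ERβ-KO against control (0.34) and in ERβ5 against ERβ-KO (-0.30), QKI and ESRP2 only in ERβ1 against ERβ-KO (-0.53 and 0.38) of the calls given here, and MBNL1 in none.

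Of 36 genes of the core spliceosome, 1 rose in ERβ-KO against control (PRPF3, at 0.45), 1 rose and 3 fell in ERβ5 against ERβ-KO and 0 rose and 5 fell in ERβ1 against ERβ-KO, with CWC22, which places the exon junction complex, at -0.50 and -0.58. SNRNP70, the U1 snRNP protein, rose in ERβ5 against ERβ-KO by 0.36 and against control by 0.50. Among 12 genes of nonsense-mediated decay and the exon junction complex, UPF3B, which links that complex to decay, rose in ERβ-KO against control by 0.46, and CASC3, a core exon junction protein, fell against ERβ-KO, at -0.52 in ERβ5 and -0.57 in ERβ1. In ERβ5 against control the decay factor SMG5 rose, and in ERβ1 against control 0 of 12 were called. In ERβ5 against ERβ1, 0 genes of these 4 lists were called, against 4.66% of all genes. GC-corrected, 3 of the other regulators and 2 of the decay genes were called there, against 8.37% of all genes. GC-corrected, 3 spliceosome genes rose and 0 fell in ERβ-KO against control, with PRPF3 at 0.43, and 0 rose and 3 fell in ERβ5 and 1 rose and 6 fell in ERβ1 against ERβ-KO. Over all genes, 11.8%, 18% and 24% were called in either direction in the same order. SNRNP70 in ERβ5 then came to -0.069 against ERβ-KO (edgeR adjusted p = 0.594) and 0.46 against control (adjusted p = 0.00392), CASC3 stayed called lower in both isoform groups against ERβ-KO (-0.54 and -0.60), and UPF3B in ERβ-KO against control was not called (adjusted p = 0.104). CWC22 against ERβ-KO was not called in ERβ5, at -0.20 (adjusted p = 0.132), and was called lower in ERβ1, at -0.35 (adjusted p = 0.0174).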

How the data were processed

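The deposited files hold whole-number read counts per gene, made by the authors. Per the submitters' processing notes, bcl2fastq, TopHat2 2.0.8b, HTSeq and hg19 were used, and per the labels' protocols the libraries came from a TruSeq total RNA kit. The sources used here do not give the HTSeq version, its strand setting or the annotation. In each file 5 entries name no gene and were left out of library sizes and tests. They held 7.01 to 7.79% (outside genes), 0.54 to 0.561% (ambiguous) and 34.7 to 39.9% (several places) of all counts. Groups came from the sample titles.

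After filterByExpr with a minimum count of 10 and a minimum total of 15, 13915 genes remained. Counts were scaled with TMM and all 8 libraries entered 1 fit of edgeR 4.0.16 in R 4.3.3, with robust quasi-likelihood F tests and a common biological coefficient of variation of 0.102. Benjamini-Hochberg adjustment ran over every gene tested, separately for each comparison, and called means an adjusted p under 0.05. The standard error of a log2 change was that change over the square root of its F. The edgeR step was tested on simulated data. GC content, length and positions came from GENCODE v44lift37 (GRCh37), with a GC content for 95.4% of the genes tested. Alternatives were RLE and upper-quartile scaling, other count filters, the groups compared alone, a replicate block, removal of the GC and length trend (lowess, span 0.3), DESeq2 1.42.0 and leaving out each library.

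Values of every library were given for members past the threshold with no overlap and at least 5 CPM in the higher group (the 4 largest per direction and comparison), the 3 highest per kilobase and a list of 10 well-studied members. From each list of other splicing genes, up to 3 called genes per direction and comparison at 5 CPM or more could be named, by size of change. The members and lists were chosen with earlier results of these data known. Replicates of a group differed by more than counting error (chi-square over its degrees of freedom, 7.52 to 41.4).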

Additional observations from a re-analysis of the deposited data

How the results depend on the processing

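The 27 calls of members were recomputed under 13 alternatives each. Of 351 values, 243 kept direction and call, 102 lost the call and 6 reversed. SRSF5 against control in all 3 groups, and HNRNPH3 in ERβ5 and ERβ1 against ERβ-KO, kept the call in all 13. The calls kept least often were those of HNRNPC (3 of 13), SRSF10 (4) and SRSF6 (6) in ERβ-KO against control.

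Numbers of members called, against 9 in ERβ-KO against control, were 5 with upper-quartile scaling, 2 with the GC and length trend removed, 13 with only these groups, and 2 to 5 with a library left out. In ERβ5 against ERβ-KO (10) the count was 6 with only these groups, 4 with the GC trend removed and 3 to 11 with a library left out. In ERβ1 against ERβ-KO (4) it was 7 with the GC trend removed and 2 to 8 with a library left out. In ERβ5 against ERβ1 (0) it was 1, SRSF8, with no filter and 0 to 1 with a library left out. In ERβ5 against control (3) it was 1 with upper-quartile scaling, 5 with the GC trend removed and 1 with any library left out. In ERβ1 against control (1) it was 2 with no filter, with only these groups and with DESeq2, 3 with the GC trend removed and 1 with any library left out. The GC correction gave the same counts with a replicate block. Calls over all genes moved with the GC correction too. They went from 17.5 to 11.8% in ERβ-KO against control, 28.2 to 18% in ERβ5 and 24.9 to 24% in ERβ1 against ERβ-KO. They went from 4.66 to 8.37% in ERβ5 against ERβ1, and 13.2 to 21.9% in ERβ5 and 4.06 to 9.85% in ERβ1 against control. For the other settings listed here and below, the counts of members stand without such shares and describe no trait of the members.

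With the GC trend removed, 30 of 186 member values changed sign. Among calls and the other changes tested under every alternative these were SRSF10 (-0.057) and SRSF1 (-0.029) in ERβ-KO against control, and HNRNPR (0.0012), SRSF11 (0.0063) and SRSF3 (0.067) in ERβ5 against ERβ-KO, and with the replicate block added -0.057, -0.029, 0.0036, 0.0063 and 0.067. The cause was not tested. The replicate numbers are only shared numbers, since deviations of same-numbered libraries correlated at -0.12 to 0.139. A replicate block alone gave 7 in ERβ-KO against control, 10 and 5 in ERβ5 and ERβ1 against ERβ-KO, 0, 3 and 1 in the others. With 2 libraries a group, leaving 1 out assumes that the lone library varies like the other groups. Low counts limit HNRNPH2, HNRNPKP3 and HNRNPA3P1.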

Other observations

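HNRPDL and HNRPLL are older symbols of 2 further hnRNP genes, HNRNPDL and HNRNPLL, and were outside the name rule. HNRPDL averaged 139 CPM in ERβ5, 138 in ERβ1, 135 in ERβ-KO and 145 in control. HNRPLL averaged 38.9, 44.2, 48.4 and 46.7 CPM in the same order. Neither was called in any of the 6 comparisons by edgeR, and the log2 difference furthest from 0 was that of HNRPLL in ERβ5 against ERβ-KO, -0.31 (adjusted p = 0.0823).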
